A study of Mus musculus with 9 samples.

Results

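The cornified envelope is the protein shell that a squamous keratinocyte builds under its membrane as it dies, and 10 genes of its enzymes and scaffolds are described here across the mouse stomach: Tgm1, Tgm2, Tgm3, Tgm5, Ppl, Evpl, Scel, Cnfn, Sbsn and Krtdap. They were chosen by gene symbol, as every probe set of the deposited table that the platform annotation gave to 1 of these genes alone. All 10 genes were found, on 19 probe sets of 45101, and each was among the 13637 genes tested. A probe set is a group of short array probes read together as 1 signal for a transcript.

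In a cornifying epithelium, transglutaminases link glutamine to lysine side chains and so join precursor proteins into an insoluble layer. Periplakin and envoplakin form the first scaffold on the membrane, linked to desmosomes and keratin filaments, and sciellin, cornifelin and small proline-rich proteins are built into it later. The rodent forestomach is lined by such a keratinised squamous epithelium, the corpus is lined by glandular epithelium, and both meet at the limiting ridge, the squamocolumnar junction.

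The samples were 3 neighbouring stripes of stomach wall: the junction, the forestomach and the corpus, each 600 to 800 µm wide. The 9 mice were healthy C57Bl/6 females aged 3 months, and the labels record no treatment and no altered allele for any group. Stripes from 3 mice were pooled before RNA extraction, which gave 3 series of 1 junction, 1 forestomach and 1 corpus pool, and each pool was read on 1 Affymetrix expression array (9 arrays, 3 per zone). The 3 pools of a zone hold different mice, while the 3 zones of a series hold the same mice. The comparisons address which genes separate the squamous zone from the glandular zone and how the boundary stripe lies between them.

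The stripes are tissue pieces of mixed cells. The labels name epithelium for the corpus pools, yet smooth muscle markers, summed over 6 genes, read 23437.6 to 27986.2 in the junction, 51568.2 to 57510.0 in the forestomach and 20313.5 to 29807.9 in the corpus. All 5 squamous basal markers were higher in the forestomach than in the corpus, and all 6 parietal and all 5 chief cell markers were lower. Of 6 squamous suprabasal markers, 5 were higher and 1 (Krt6a) was not called. Of all genes, 30% were called higher and 29.9% lower. The junction pools held both epithelia at high signal. Mucous cell markers, summed over 5 genes, read 1201.2, 23577.8 and 29894.2 in forestomach series 1, 2 and 3. Parietal marker sums read 166.3, 1144.8 and 2025.3 there, and chief cell marker sums 147.1, 497.1 and 1847.7. The forestomach pools of series 2 and 3 thus carried more gland marker signal than that of series 1. The results for all 10 genes in forestomach over corpus were called with any 1 array left out. All arrays had been scaled to 1 common trimmed mean, with a median of 47.9 to 57.1. In these bulk pools, fewer cells of a type and less RNA per cell cannot be told apart.

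All 10 genes were higher in the forestomach than in the corpus, by 3.76-fold for Tgm2 to 86.6-fold for Scel as signal plus 9.8, and all 10 were higher in the junction than in the corpus. Both ends of that range move with the amount added: with 1 added, Tgm1 (128.3-fold) exceeded Scel (99.2-fold), and with 30.9 added, Tgm5 (2.62-fold) lay below Tgm2 (3.71-fold). The median log2 difference of the 10 genes was 4.98 for forestomach minus corpus, against -0.01 over all genes tested. It was 4.08 for junction minus corpus, against -0.05 over all genes. By limma with Benjamini-Hochberg adjustment over all genes, 30% of genes were called higher in the forestomach than in the corpus at an adjusted p under 0.05, and 59.9% in either direction. For junction minus corpus, 13.2% were called higher and 25% in either direction. With each array's log2 median set equal, 2110 genes were called higher and 873 lower in the junction than in the corpus, beside 1800 and 1606 as scaled by the authors, and the 10 genes kept all their calls.

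Between the junction and the forestomach not all of the genes were called, and differences between the genes were not tested. Tgm1, Tgm2, Tgm3, Ppl, Evpl, Scel, Cnfn and Sbsn were lower in the junction, by 1.57-fold for Sbsn to 4.01-fold for Tgm3, while Tgm5 and Krtdap did not pass the test. That made 8 of 10 called lower, where 23.1% of all genes were called lower and 44.6% in either direction. The median difference of the 10 genes was -1.02 on the log2 scale, against -0.04 over all genes. The arrays of the 2 zones did not overlap for the same 8 genes, where 29.8% of all genes were lower without overlap. In the comparisons with the corpus, none of the 10 genes overlapped, where 33.2% (forestomach) and 20% (junction) of all genes were higher without overlap.

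**Figure D1:**
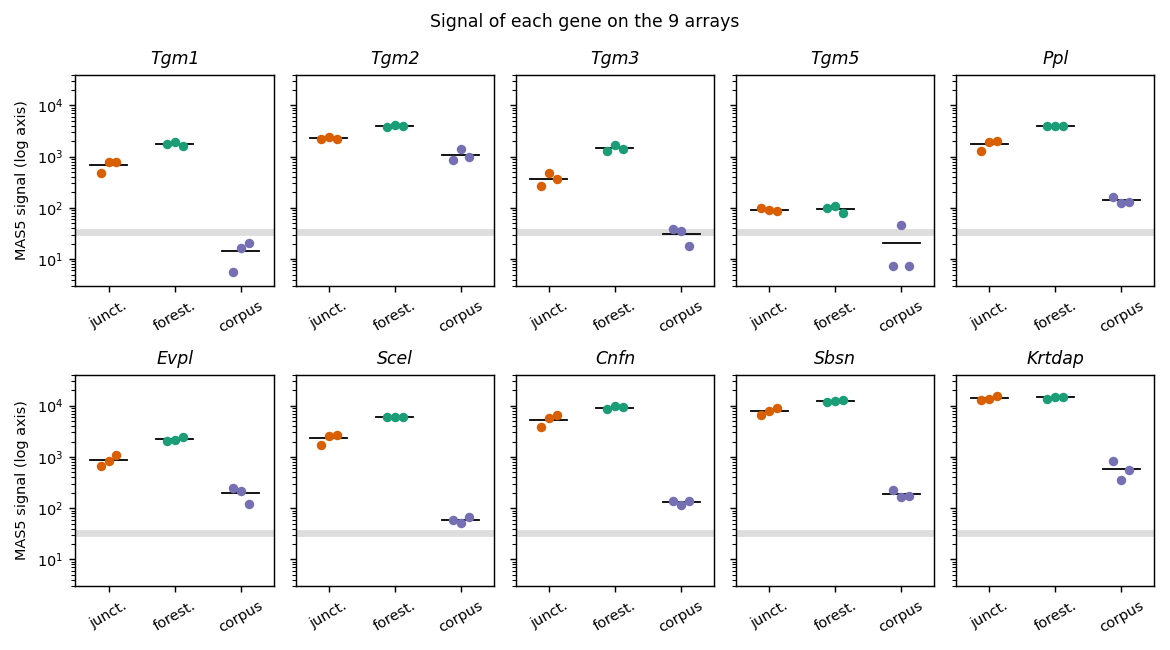
Signal of each gene (MAS5 units, log axis) on the 3 junction, 3 forestomach and 3 corpus arrays; points are arrays, black lines are zone means, and the grey band is the level of 29.0 to 36.5 that a probe set had to exceed on 3 arrays to be kept. The corpus points lie below both other zones in every panel, and only in the Tgm5 and Krtdap panels do the junction and forestomach points overlap.

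Among the enzymes, Tgm1 is the membrane-anchored transglutaminase of keratinocytes, which is mutated in lamellar ichthyosis in humans. Its signal was 480.6, 800.0 and 789.6 in junction series 1 to 3, against 1750.1, 1918.4 and 1596.9 in the forestomach and 5.6, 16.6 and 20.9 in the corpus. The zones lay wholly apart, and no corpus array exceeded the level of the filter on dim signals, which was 29.0 to 36.5. The forestomach exceeded the corpus by 6.25 ± 0.28 on the log2 scale (SE, n = 3 arrays each; limma adjusted p = 3.21e-07). The junction exceeded the corpus by 4.88 ± 0.28 (adjusted p = 5.85e-06) and differed from the forestomach by -1.37 ± 0.28 (adjusted p = 0.00403). These log2 values are of signal plus 9.8, and the corresponding forestomach-to-corpus ratio of 75.9 became 128.3 with 1 added in place of 9.8 and 39.8 with 30.9 added.

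Tgm3, the transglutaminase of hair follicles and of the upper epidermis, which is activated by proteolysis, had the largest junction-to-forestomach difference among the probe sets that represented the 10 genes. It read 261.8, 473.4 and 366.8 in the junction, against 1287.1, 1716.2 and 1419.0 in the forestomach and 39.4, 35.7 and 17.8 in the corpus. Each forestomach array was above every junction array, and 1 of 3 corpus arrays exceeded the filter level. The forestomach was 37.3-fold above the corpus (log2 5.22 ± 0.27, limma adjusted p = 6.57e-07). Its junction was 9.28-fold above the corpus (adjusted p = 5.33e-05) and 4.01-fold below the forestomach (log2 -2.01 ± 0.27, adjusted p = 4.26e-04). A second, dimmer Tgm3 probe set read 171.8, 337.7 and 189.8 in the junction, against 546.9, 762.8 and 625.7 in the forestomach and 11.9, 68.1 and 36.0 in the corpus. It gave the same order of zones with smaller ratios, 15.2-fold for forestomach over corpus and 2.79-fold lower in the junction than in the forestomach (adjusted p = 0.0259 over all kept probe sets).

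Tgm5, a further epidermal transglutaminase, mutated in acral peeling skin syndrome in humans, exceeded the filter level on every junction and forestomach array and on 1 of 3 corpus arrays. It read 99.6, 89.1 and 88.4 in the junction, against 100.5, 108.9 and 80.0 in the forestomach and 7.3, 46.5 and 7.2 in the corpus. Junction and forestomach arrays overlapped, and corpus series 2 stood above the other two corpus pools. The forestomach was 4.16-fold (adjusted p = 0.00235) and the junction 4.02-fold (adjusted p = 0.00848) above the corpus by limma, with a standard error of 0.41 on the log2 scale. The ratios were 6.54 and 6.31 with 1 added to the signal and 2.62 and 2.55 with 30.9 added. Junction over corpus was 6.08-fold without series 2, and it was not called without series 1 (3.19-fold, adjusted p = 0.0963) or without series 3 (3.35-fold, adjusted p = 0.105). Junction minus forestomach was -0.05 on the log2 scale, with a 95% interval of -0.98 to 0.88 (adjusted p = 0.933).

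Tgm2, or tissue transglutaminase, is the family member found in many cell types, where it also acts outside the cell on matrix proteins. The corpus held 22.7%, 33.2% and 24.4% of its forestomach signal in series 1 to 3, beside 0.320%, 0.865% and 1.31% for Tgm1. The probe set that represented it read 2177.6, 2421.0 and 2191.6 in the junction, against 3838.8, 4194.1 and 3946.7 in the forestomach and 871.7, 1394.3 and 963.1 in the corpus. The 3 zones did not overlap. The forestomach was 3.76-fold above the corpus (log2 1.91 ± 0.16, limma adjusted p = 1.36e-05), and the junction was 2.13-fold above the corpus (adjusted p = 0.00185) and 1.76-fold below the forestomach (adjusted p = 0.00368). Without series 3, neither junction comparison was called (adjusted p = 0.0527 against the corpus and 0.0520 against the forestomach).

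Tgm2 had more probe sets than the other genes. Of 6, 1 did not pass the filter, with signals of 0.7 to 16.4, and the other 5 all called the forestomach above the corpus, with log2 differences of 0.85 to 1.94. The junction was called lower than the forestomach by 3 of the 5, all of a design (suffix x) whose probes can match other transcripts. The remaining 2 did not pass, at -0.28 (adjusted p = 0.112) and -0.31 (adjusted p = 0.251). The dimmest of these 2 also did not call junction over corpus (0.54, adjusted p = 0.0911). The order of zone means was the same on all 5 kept probe sets, and the size of the junction step depends on which is read.

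Markers of stromal and immune cells, several of which can hold Tgm2, also differed between the zones. Smooth muscle markers were higher in the forestomach than in the corpus for 6 of 6 genes, with a median log2 difference of 1.53, and lower in the junction than in the forestomach for 6 of 6. Fibroblast markers were higher in the forestomach for 5 of 6 genes and summed to 20473.2 to 21858.6 in the junction, 26336.5 to 34248.7 in the forestomach and 14420.7 to 16821.8 in the corpus. Macrophage markers were higher in the forestomach for 5 of 6 genes, with sums of 4619.9 to 4708.6 in the junction, 4692.2 to 6132.8 in the forestomach and 2636.9 to 3024.1 in the corpus. Endothelial markers were higher for 1, lower for 2 and not called for 3 of 6. Mast cell markers were higher for 3, lower for 2 and not called for 1 of 6. Of all genes, 30% were called higher and 29.9% lower in the forestomach than in the corpus. Between junction and forestomach, 23.1% of all genes were called lower in the junction. The part of these cells in the Tgm2 result was not tested.

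The remaining transglutaminase family had 6 listed genes (Tgm4, Tgm6, Tgm7, F13a1, F13b and Epb42), of which F13a1 alone was among the genes tested. F13a1 encodes the A chain of coagulation factor XIII, a transglutaminase also made by macrophages. Its signal was 467.2, 494.8 and 452.4 in the junction, against 881.8, 885.5 and 709.3 in the forestomach and 180.4, 227.6 and 203.1 in the corpus. It was 3.91-fold higher in the forestomach than in the corpus (limma adjusted p = 1.94e-06) and 1.73-fold lower in the junction than in the forestomach (adjusted p = 9.59e-04). Macrophage marker sums, given above, moved in the same direction between forestomach and corpus, and their part in it was not tested.

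**Figure D2:**
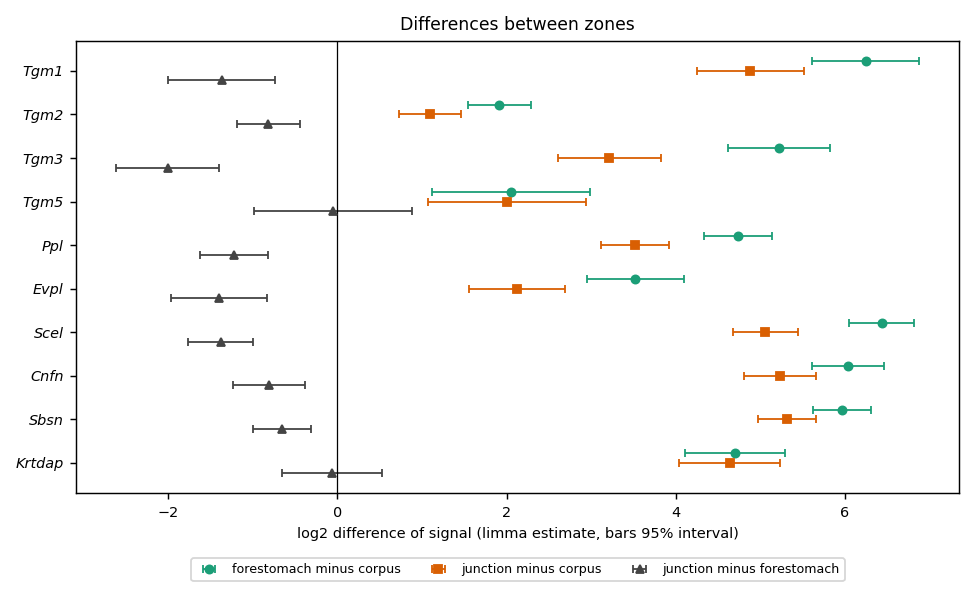
Log2 difference of signal for each gene in the 3 comparisons (limma estimates; bars are 95% intervals; 3 arrays per zone). Forestomach minus corpus and junction minus corpus lie right of 0 for all 10 genes, and the junction minus forestomach intervals of Tgm5 and Krtdap include 0.

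Among the scaffolds, periplakin and envoplakin, the plakin partners of the first envelope layer, both stood well above the corpus. Ppl read 1279.2, 1914.9 and 1982.3 in the junction, against 3949.2, 4016.0 and 3903.6 in the forestomach and 165.7, 122.6 and 132.3 in the corpus. Its forestomach pools differed little from each other, while junction series 1 was the low one of its zone. Evpl read 678.8, 836.2 and 1067.4 in the junction, against 2087.9, 2176.8 and 2501.5 in the forestomach and 244.1, 214.9 and 123.2 in the corpus. Neither gene overlapped between zones.

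The step from corpus to forestomach was larger for Ppl, at 26.6-fold (log2 4.74 ± 0.18, limma adjusted p = 1.66e-07), than for Evpl, at 11.5-fold (log2 3.52 ± 0.25, adjusted p = 4.42e-06), although the difference between the genes was not tested. Evpl kept 11.7%, 9.87% and 4.93% of its forestomach signal in the corpus, against 4.196%, 3.05% and 3.39% for Ppl. From forestomach to junction the steps were alike in size, 2.33-fold lower for Ppl (adjusted p = 6.72e-04) and 2.64-fold lower for Evpl (adjusted p = 0.0021). Against the corpus, the junction was 11.4-fold higher for Ppl (adjusted p = 2.93e-06) and 4.36-fold higher for Evpl (adjusted p = 5.01e-04).

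Scel encodes sciellin, an envelope precursor with repeated domains that transglutaminases crosslink. Its signal was 1711.2, 2570.9 and 2682.3 in the junction, against 5913.3, 5944.7 and 5957.7 in the forestomach and 59.2, 52.1 and 66.1 in the corpus. The forestomach pools agreed closely and the zones lay far apart. The forestomach was 86.6-fold above the corpus (log2 6.44 ± 0.17, limma adjusted p = 6.19e-08), while the junction was 33.3-fold above the corpus (adjusted p = 7.46e-07) and 2.6-fold below the forestomach (adjusted p = 2.64e-04). A second Scel probe set, with signals of 0.7 to 17.2, did not pass the filter.

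Cnfn encodes cornifelin, a small cysteine-rich envelope protein. It read 3811.6, 5782.6 and 6456.8 in the junction, against 8626.5, 9677.3 and 9269.7 in the forestomach and 140.0, 114.2 and 136.6 in the corpus, without overlap. The forestomach was 65.8-fold (log2 6.04 ± 0.19, limma adjusted p = 8.80e-08) and the junction 37.5-fold (adjusted p = 7.46e-07) above the corpus. Between junction and forestomach the difference was smaller, 1.76-fold lower in the junction (adjusted p = 0.00738), and it was not called without series 2 (1.80-fold, adjusted p = 0.0550).

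The last members are secreted proteins of the differentiating layers. Sbsn encodes suprabasin, reported as a transglutaminase substrate, and Krtdap encodes keratinocyte differentiation-associated protein. In RefSeq gene order, Sbsn, Dmkn and Krtdap follow each other on chromosome 7, where Dmkn encodes dermokine, another secreted protein of the same layers. RefSeq promoters (GRCm38.p6, 250 bases before to 50 after a start) were at hand for 7 of the 10 genes, in 8 entries, and not for Tgm2, Ppl and Evpl. Of 10 motifs searched on both strands, TGANTCA includes the binding sequences TGAGTCA and TGACTCA of the AP-1 (Fos and Jun) factors. It was in 3 of the 8 entries, those of Sbsn, Krtdap and Scel (3 of 7 genes), against 7.81% of 32851 promoters. It was also in all 3 entries of Dmkn, of which the first and second overlap and hold the same copy. The promoters of the 3 neighbours and of Scel are shown because they hold this motif, in capitals. All are on the plus strand, 5′ to 3′, at chr7:30751221-30751520 (Sbsn), chr7:30763506-30763805 (Dmkn, the first entry), chr7:30787655-30787954 (Krtdap) and chr14:103513091-103513390 (Scel).
Sbsn: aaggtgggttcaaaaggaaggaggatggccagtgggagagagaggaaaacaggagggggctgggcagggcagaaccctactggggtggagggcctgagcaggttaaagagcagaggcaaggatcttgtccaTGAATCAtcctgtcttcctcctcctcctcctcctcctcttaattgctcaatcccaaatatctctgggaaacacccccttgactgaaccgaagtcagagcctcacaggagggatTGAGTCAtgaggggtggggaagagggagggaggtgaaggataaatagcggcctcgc
Dmkn: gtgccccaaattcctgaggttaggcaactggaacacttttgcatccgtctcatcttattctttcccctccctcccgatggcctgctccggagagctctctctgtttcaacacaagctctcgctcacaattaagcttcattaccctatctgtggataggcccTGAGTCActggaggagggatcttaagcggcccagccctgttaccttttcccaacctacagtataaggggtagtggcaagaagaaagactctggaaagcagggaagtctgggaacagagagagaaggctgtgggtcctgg
Krtdap: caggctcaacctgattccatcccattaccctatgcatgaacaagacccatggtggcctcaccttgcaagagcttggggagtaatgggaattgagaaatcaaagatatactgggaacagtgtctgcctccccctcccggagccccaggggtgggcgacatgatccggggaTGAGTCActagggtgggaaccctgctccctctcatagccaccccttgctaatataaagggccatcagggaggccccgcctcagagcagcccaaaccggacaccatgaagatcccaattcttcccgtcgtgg
Scel: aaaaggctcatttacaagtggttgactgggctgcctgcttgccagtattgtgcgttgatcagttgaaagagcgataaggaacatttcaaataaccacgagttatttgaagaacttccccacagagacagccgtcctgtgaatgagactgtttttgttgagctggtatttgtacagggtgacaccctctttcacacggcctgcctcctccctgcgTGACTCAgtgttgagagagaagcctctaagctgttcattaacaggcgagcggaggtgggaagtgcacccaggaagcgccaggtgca
The motif began 119 and 6 bases before the start in Sbsn, where the first copy reads TGAATCA, 81 before it in Krtdap, 89 in this Dmkn entry and 36 in Scel. These are matches of letters, and no binding was measured here.

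Matches to the other 9 motifs were as follows. TGANNCA, which contains TGANTCA, was in 5 of 7 genes (Cnfn, Krtdap, Sbsn, Scel and Tgm1), against 42.47% of all promoters. A TATAAA box was in Krtdap and Tgm3 (13.62% of all promoters), and the shorter TATAA also in Cnfn (24.87%). AACCGGTT, a full grainyhead site, was in none (0.15% of all promoters), and AACNGGTT was in Tgm5 (2.09%). Cnfn held CCACACCC (3.56%), GGGNGTGG (17.62%) and GCCNNNGGC (16.59%), and CCGCCC was in Cnfn and Tgm1 (35.66%). Read on the other strand, every match to CCACACCC is also a match to GGGNGTGG, so these are not separate matches.

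Sbsn read 6593.3, 8040.7 and 9197.9 in the junction, against 11907.1, 12604.6 and 12625.0 in the forestomach and 227.4, 168.9 and 173.3 in the corpus, with no overlap. The forestomach was 62.5-fold above the corpus (log2 5.97 ± 0.15, limma adjusted p = 6.19e-08), the junction was 39.8-fold above it (adjusted p = 6.40e-07) and 1.57-fold below the forestomach (adjusted p = 0.00765). The last difference was not called without series 2 (1.57-fold, adjusted p = 0.0686).

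Of the 3 Sbsn probe sets, the dimmest showed the largest steps. It read 591.8, 1043.4 and 934.8 in the junction, against 2793.1, 2961.2 and 3237.9 in the forestomach and 6.7, 16.9 and 2.5 in the corpus, where no array exceeded the filter level. On it the forestomach was 170.9-fold above the corpus, against 62.5-fold and 65.9-fold on the brighter 2, and the junction was 3.56-fold below the forestomach (adjusted p = 0.00144 over all kept probe sets), against 1.57-fold and 1.75-fold. Whether array saturation at high signal plays a part in this was not tested.

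Krtdap signals were 12872.3, 13500.0 and 15110.5 in the junction, against 13781.6, 14849.1 and 14775.0 in the forestomach and 837.3, 349.7 and 552.8 in the corpus. Junction and forestomach arrays overlapped, and junction series 3 was the highest of all 9. The forestomach was 26.1-fold (log2 4.70 ± 0.26, limma adjusted p = 1.01e-06) and the junction 24.9-fold (adjusted p = 5.45e-06) above the corpus. Junction minus forestomach was -0.07 on the log2 scale, with a 95% interval of -0.66 to 0.52 (adjusted p = 0.853). The largest signal of any probe set was 22793.5, and the part of saturation in the Krtdap value was not tested.

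Their neighbour Dmkn read 9053.7, 10946.5 and 12148.5 in the junction, against 15386.7, 15745.8 and 14935.0 in the forestomach and 388.1, 163.7 and 223.0 in the corpus. It was 60.9-fold higher in the forestomach than in the corpus (limma adjusted p = 3.28e-07). Its junction arrays were all below its forestomach arrays, yet the difference of -0.53 on the log2 scale did not pass the test (adjusted p = 0.138).

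**Figure D3:**
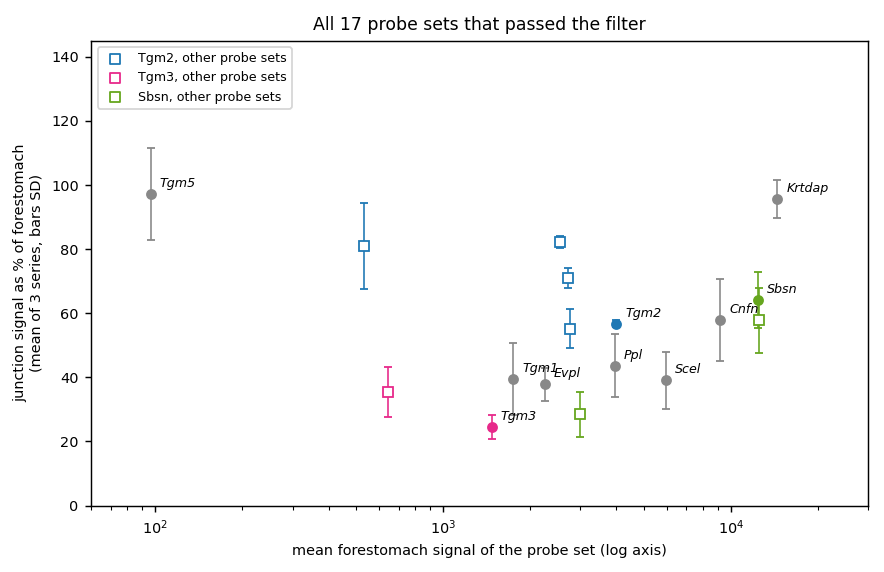
Junction signal as a percent of forestomach signal (mean of 3 series, bars SD) against the mean forestomach signal of the probe set (log axis), for the 17 probe sets of the 10 genes that passed the filter; filled points represent the gene in the tests, and open squares are further probe sets of Tgm2, Tgm3 and Sbsn. The dimmest Sbsn probe set lies below the other Sbsn probe sets, and the 5 of Tgm2 spread widely.

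The junction was then placed between its neighbours on the signal scale, series by series, where 0% is the corpus and 100% the forestomach. As a yardstick, the 1798 genes called at least 2-fold higher in the forestomach than in the corpus had median positions of 24.6%, 34.97% and 37.4% in series 1 to 3, with a mean of 32.3%. Tgm3 lay lowest of the 10 genes, at 17.8%, 26.0% and 24.9% (mean 22.9% ± 4.45, SD over 3 series), and Evpl followed at 31.6% ± 8.06. Scel, Tgm1, Tgm2 and Ppl lay close together, with means of 38.5% to 41.5%, which differed by less than the spread between series. Cnfn was at 57.2% ± 13.1 and Sbsn at 63.4% ± 8.99. Tgm5 (99.0%, 68.3% and 111.5%) and Krtdap (93.0%, 90.7% and 102.4%) were near the forestomach end, above 94.9% and 95.3% of the 1798 genes. Other squamous genes that met the same rule varied in position. Lce1m (24.4%), Ivl (26.2%) and Prdm1 (28.8%), named after their values were seen, lay below the yardstick mean of 32.3%, while the list medians lay above it. The median position, as the mean of 3 series, was 58.1% for 28 further envelope precursors and 52.5% for 8 desmosome genes. It was 42.3% for 12 squamous transcription factors. Of the suprabasal markers, Krt1 lay at 105.4%, Krt10 at 102.4%, Krt13 at 73.8%, Krt4 at 63.5% and Dsc1 at 41.5%. Of the basal markers, Krt15 lay at 208.0%, Krt5 at 107.3%, Krt14 at 101.3%, Col17a1 at 73.3% and Trp63 at 69.4%.

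On the junction arrays, 9 of the 10 genes had their lowest signal in series 1, and Tgm5 had its lowest in series 3. Among the 1798 genes higher in the forestomach, 60.1% were also lowest on the junction array of series 1. On its dimmest probe set the mean position of Sbsn was 28.2%, against 57.2% and 63.4% on the other two. The 5 kept Tgm2 probe sets had mean positions of 39.4% to 68.4%, and the dimmer Tgm3 probe set lay at 31.6% ± 6.53.

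**Figure D4:**
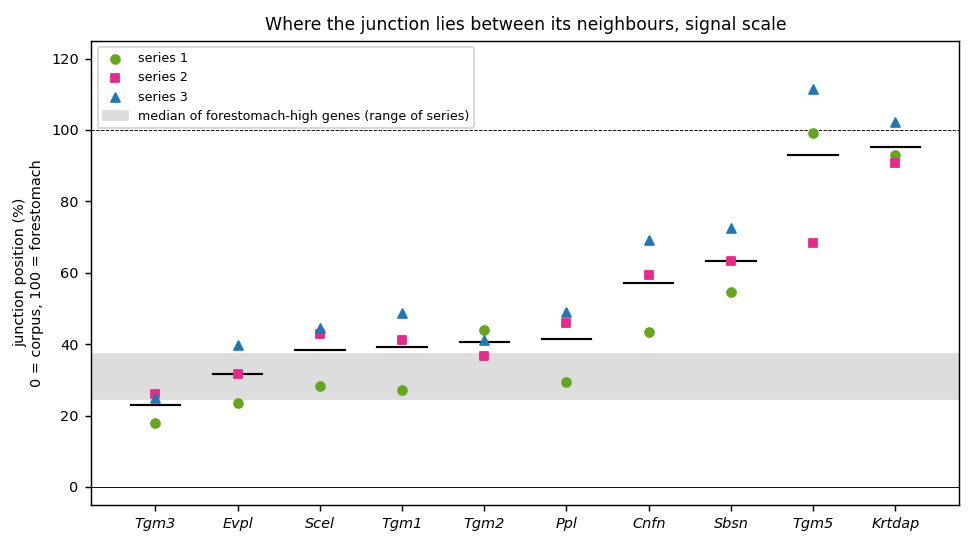
Position of the junction between corpus (0%) and forestomach (100%) on the signal scale, for each gene in each of 3 series (points) with the mean (black line); the grey band spans the 3 series medians of the 1798 genes higher in the forestomach. Tgm3 lies at the lower edge of the band or below it, and Cnfn, Sbsn, Tgm5 and Krtdap lie above it in every series.

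Each gene was also tested against the value that an even mix of its own forestomach and corpus signals would give. Krtdap lay above that midpoint, by 0.87 ± 0.087 on the log2 scale (n = 3 series; limma adjusted p = 0.0173), and Tgm3 lay below it, by -1.04 ± 0.12 (adjusted p = 0.0205). The other 8 did not pass, with values of -0.53 for Evpl (adjusted p = 0.0646) to 0.61 for Tgm5 (adjusted p = 0.0897). So 1 of 10 was called higher, where 3.76% of all genes were, and 1 lower, where 6.44% were, with 10.2% in either direction. Both calls were lost when dim probe sets were kept in the test (adjusted p = 0.0579 for Krtdap and 0.0622 for Tgm3), under limma's trend and robust options (0.0663 and 0.0682), without series 2 (0.106 for both) and without series 3 (0.0756 and 0.0793). The second Tgm3 probe set gave -0.58 (adjusted p = 0.0809 over all kept probe sets) and was not called. The dimmest Sbsn probe set gave -0.84 (adjusted p = 0.0633), against 0.32 on the one that represented Sbsn (adjusted p = 0.140).

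The corpus signal of the squamous genes was small but unequal. As a share of the forestomach signal in series 1 to 3, Krtdap had 6.08%, 2.36% and 3.74%, Sbsn 1.91%, 1.34% and 1.37%, Cnfn 1.62%, 1.18% and 1.47%, and Scel 1.001%, 0.876% and 1.11%. Summed squamous basal markers (Krt5, Krt14, Krt15, Trp63 and Col17a1) had 2.54%, 0.878% and 2.08%, and suprabasal markers 4.29%, 1.80% and 2.15%. The shares of Krtdap, Sbsn, Cnfn and both marker sums were highest in corpus series 1 and lowest in series 2. Of the other members, Ppl had the same order, and Scel, Tgm1, Tgm2, Tgm3, Tgm5 and Evpl did not. Whether squamous tissue in the corpus stripes has a part in these values was not tested.

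Most other tested envelope precursors were higher in the forestomach than in the corpus. Of 48 listed, 30 were among the genes tested. Of these, 28 were higher and 1 was lower in the forestomach than in the corpus, with a median log2 difference of 6.26. Of all genes, 30% were called higher and 59.9% in either direction. Genes dim in the corpus, such as Sprr1b (corpus mean 2.9) and Lce1l (5.9), passed the filter through junction and forestomach arrays alone. The filter favoured the direction of such genes, so the count of 28 is not free of it. As signal plus 9.8, Hrnr (hornerin) was 202-fold higher (limma adjusted p = 1.09e-07), and Lce3c and Lce1c, of the late cornified envelope cluster, were 177-fold (adjusted p = 1.13e-06) and 149-fold higher (adjusted p = 9.28e-08). Their corpus signals were 30.2, 16.9 and 20.6 for Hrnr, 91.7, 24.7 and 21.4 for Lce3c and on average 64.7 ± 24.2 (SD) for Lce1c. Since several of these signals lie near or below the filter level, as do those of other strongly differing genes in the lists, the folds depend on the amount added. The folds of these genes and their order with other amounts are not given here. In the junction, 28 were higher than in the corpus, 13 were lower and 1 higher than in the forestomach, and 16 did not pass that test, where 23.1% of all genes were lower than in the forestomach and 13.2% higher than in the corpus. The lower and the higher gene in these counts is Sprr2f in both, named after its values were seen, which was 6.52-fold lower in the forestomach than in the corpus and 4.81-fold higher in the junction than in the forestomach. Some Sprr2 and Lce genes resemble others of their own family closely, and cross-hybridisation between them was not tested.

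Desmosome genes, the anchors of the plakin scaffold, were split. Of 13 listed, 12 were tested: 9 were higher and 3 lower in the forestomach than in the corpus (30% and 29.9% of all genes). Those named are Dsc1 (desmocollin 1, 127-fold higher, limma adjusted p = 1.68e-07), Pkp1 (plakophilin 1, 116-fold, adjusted p = 1.77e-07) and Dsg1b (desmoglein 1 beta, 50.5-fold, adjusted p = 9.31e-08). The 3 lower genes were Dsg2, Dsc2 and Pkp2, named after their values were seen, with log2 differences of -3.69, -2.51 and -2.40, and they are the desmosomal isoforms of simple epithelia. In the junction, 6 were lower than in the forestomach (23.1% of all genes) and these 3 were higher (21.5%). Of the other 5 plakins (Dsp, Plec, Dst, Macf1 and Eppk1), 4 were higher in the forestomach than in the corpus, and so was the periplakin-binding Kazn, with a median of 0.91 on the log2 scale over the 6 genes, against -0.01 over all genes. Epiplakin (Eppk1) was 8.83-fold higher (adjusted p = 6.60e-07), desmoplakin (Dsp) 2.6-fold (adjusted p = 1.49e-05) and Kazn 1.93-fold (adjusted p = 0.00123). Dsp did not pass the test between junction and forestomach (-0.18 on the log2 scale, adjusted p = 0.255).

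The proteases and the protease inhibitor listed for control of transglutaminases were all higher in the forestomach than in the corpus (4 of 4, where 30% of all genes were). All were also higher in the junction than in the corpus (where 13.2% were). Cathepsin L (Ctsl), which processes Tgm3 in mouse skin, read 3727.4, 3773.9 and 5207.2 in the junction, against 6927.6, 7013.2 and 6987.4 in the forestomach and 1885.6, 1762.2 and 2084.6 in the corpus. It was 3.65-fold higher in the forestomach than in the corpus (limma adjusted p = 5.78e-06) and 1.67-fold lower in the junction than in the forestomach (adjusted p = 0.00273). Cystatin M/E (Cst6), which inhibits cathepsin L and legumain, was 149.7-fold higher in the forestomach than in the corpus (adjusted p = 7.07e-08) and 3.18-fold lower in the junction than in the forestomach (adjusted p = 2.23e-04). Legumain (Lgmn) and cathepsin D (Ctsd) differed little, at 1.41-fold (adjusted p = 0.0194) and 1.35-fold (adjusted p = 0.00227) for forestomach over corpus.

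Among 19 tested transcription factors of squamous differentiation (of 20 listed), 14 were higher and 1 lower in the forestomach than in the corpus, where 30% and 29.9% of all genes were. In the junction, 12 were lower and 2 higher than in the forestomach, where 23.1% and 21.5% of all genes were. Hopx, a homeodomain cofactor, was 54.5-fold higher in the forestomach than in the corpus (limma adjusted p = 1.16e-07), and Trp63, the p63 gene of basal cells, 49.0-fold (adjusted p = 1.05e-07). Grhl3, a grainyhead factor that regulates Tgm1 in mouse epidermis, was 40.3-fold higher (adjusted p = 9.24e-07). It read 351.3, 575.3 and 603.5 in the junction, against 1206.6, 1325.8 and 1165.0 in the forestomach and 38.1, 12.9 and 17 in the corpus. Its junction was 2.45-fold below the forestomach (adjusted p = 0.00667). The AP-1 genes of the list are named after their values were seen. Fosl2 was 1.48-fold higher in the forestomach than in the corpus (limma adjusted p = 8.09e-04). Fosl1 (log2 0.20, adjusted p = 0.736) and Junb (log2 -0.29, adjusted p = 0.413) did not pass.

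All 4 tested cytosolic proteins that are built into envelopes (of 5 listed) were higher in the forestomach than in the corpus, where 30% of all genes were. Serpinb2, a serpin, was 88.0-fold higher (limma adjusted p = 1.97e-07), annexin A1 (Anxa1) 6.30-fold (adjusted p = 7.62e-07) and S100a10, an annexin partner, 3.70-fold (adjusted p = 9.58e-06). In the junction, 2 of the 4 were lower than in the forestomach (23.1% of all genes), and Anxa1 did not pass (-0.04 on the log2 scale, adjusted p = 0.819). The surface and matrix partners of Tgm2 had no common direction: of 8, 4 were higher, 3 lower and 1 not called in the forestomach against the corpus, where 30% of all genes were higher and 29.9% lower. Fibronectin (Fn1), a matrix partner of Tgm2, was 3.05-fold higher (adjusted p = 4.19e-06), while the receptor Adgrg1 was 3.31-fold lower (adjusted p = 4.73e-06) and the proteoglycan Sdc4 2.5-fold lower (adjusted p = 6.34e-05).

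**Figure D5:**
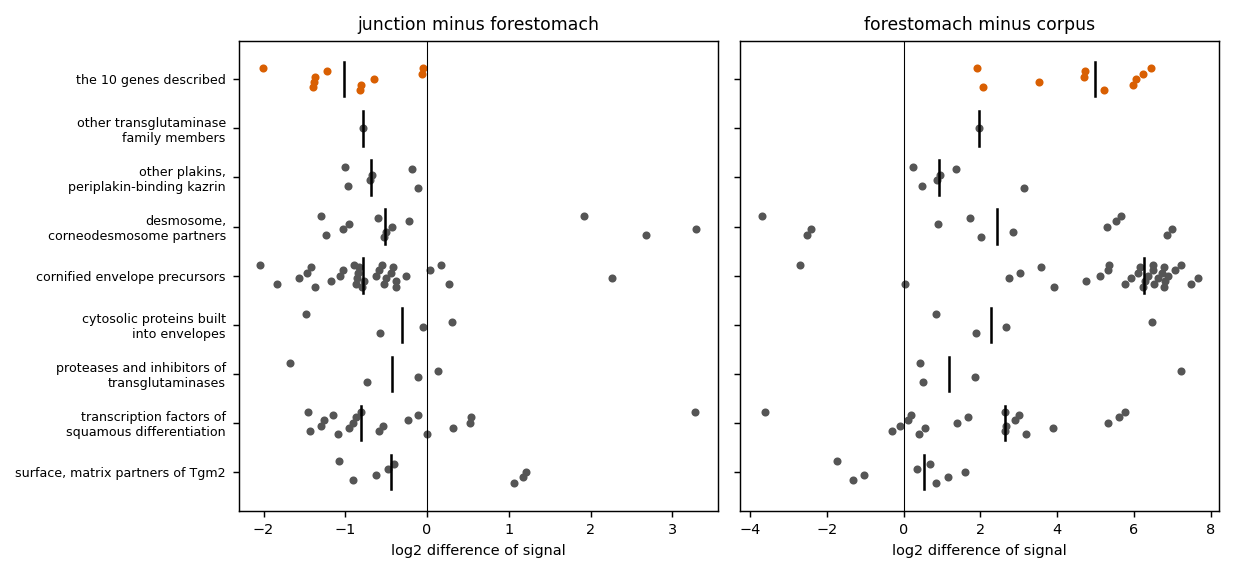
Log2 difference of signal for the 10 genes (orange) and for the tested members of 8 pathway lists (grey points; black bars are medians), for junction minus forestomach (left) and forestomach minus corpus (right). The 10 genes and the envelope precursors have medians of 4.98 and 6.26 in the right panel, and the precursors' median in the left panel is -0.78.

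For each of the 10 genes, tested genes outside the 10 were ranked by how alike their log2 profiles were over the 9 arrays. The measure was the root-mean-square difference of profiles centred on their own means. Genes known only by predicted, Riken or clone names were left out. The 10 genes were not ranked against each other, so a closer match among them, as between Cnfn and Sbsn, is not shown. Krtdap was matched most closely, by Krt1 at 0.0876, Krt10 at 0.151 and Lor at 0.188 on the log2 scale, which encode the suprabasal keratins and loricrin. Krt1 and Krt10 likewise differed little between junction and forestomach, by 0.07 and 0.03. Ppl was nearest to H60c (0.118), Ly6g6c and Clca2, and Tgm2 to Pea15a (0.121), Tmem109 (0.135) and F13a1 (0.135). Tgm1 was nearest to Alox12b (0.230), a lipoxygenase of the skin's lipid barrier, then Sprr2i and Capns2, and Evpl to Rassf5 (0.175), Dusp5 and Aloxe3. Scel was nearest to Elovl4 (0.173), Fads2b and Fetub, Cnfn to Gjb2 (0.164), Fetub and Kprp, and Sbsn to Kprp (0.169), Asprv1 and Lypd3. Tgm3 had Dkkl1 (0.181), Nipal4 and Adtrp as its nearest genes. Tgm5 had the least close neighbours, Nptx2 (0.359), Dkk2 and S100a4.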

How the data were processed

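RNA of 9 pools was hybridised as biotin-labelled cRNA, per the labels' protocols. The authors deposited 1 linear intensity signal per probe set and array, computed with MAS5 (per the submitters' processing notes). MAS5's version and settings were not given in the sources used here, and no detection calls were used. Of 45101 probe sets, 64 controls were left out. The platform annotation gave 1 symbol to 34958, several to 932 and none to 9211, and symbols were updated through Entrez IDs (34754 matched). Probe sets above their array's 40th percentile on at least 3 arrays were kept (29511), and of several kept for 1 gene the one with the highest mean log2 signal stood for it, giving 13637 genes. The arrays of 1 zone suffice for this. A list gene dim in the corpus can therefore be tested through the other zones alone, which favours its direction.

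Values were analysed as log2(signal + 9.8), where 9.8 is the arrays' median 20th percentile, so that folds understate the change of dim genes. Differences were fitted by limma 3.58.1 (R 4.3.3) as zone means over 9 arrays (6 residual and 2.56 prior degrees of freedom), two-sided, with Benjamini-Hochberg adjustment over all genes. The midpoint test used 1 value per series (2 residual and 2.63 prior degrees of freedom). The zone fit was run on simulated arrays with known changes, for forestomach minus corpus alone and without a series effect. The midpoint test was not checked in this way, and the outcome is not given here. Each test compares zones within 1 probe set, and marker sums add the signals of several genes. Precision is limited by 3 arrays per zone.

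The zones of a series come from the same mice, per the series' design. Deviations from the zone means of same-numbered arrays correlated at -0.03 to 0.12 over 9 pairs, 1 of them over 0.1. The members and all gene lists were chosen with earlier results of these data known. Genes named beside the 10 are, in each list, up to 3 called in forestomach minus corpus with the largest difference, then F13a1, Dsp, Ctsl, Ctsd, Cst6, Grhl3 and Dmkn, and the 3 genes of most alike profile. Promoters are from RefSeq, GRCm38.p6. The files name no genome build. Alternatives in pseudocount, filter, normalization, probe set choice, variance model, arrays fitted, replicate block and arrays left out were run.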

Additional observations from a re-analysis of the deposited data

How the results depend on the processing

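The 10 genes kept their 10 calls for forestomach over corpus under every alternative run. For junction over corpus 8 to 10 were called and for junction below forestomach 6 to 8 when arrays or series were left out. Over all results for single genes, 789 kept direction and call, 14 lost and 3 gained the call, and 4 changed sign without being called: junction minus forestomach of Tgm5 ran from -0.17 to 0.036 with single arrays left out (0.036 without forestomach replicate 2) and was 0.059 without series 2, and the midpoint value became 0.014 for Tgm2 and -0.11 for Sbsn with probe sets averaged. With the replicate block (series number), 8145, 3230 and 6046 genes were called for forestomach minus corpus, junction minus corpus and junction minus forestomach, beside 8168, 3406 and 6079 without it, and no call of the 10 genes changed. Leaving out arrays or series, 6471 to 8138, 1221 to 3319 and 3946 to 5979 genes were called; the lowest counts for junction minus corpus came without series 2 (1221), series 3 (1314), series 1 (2028) and junction replicate 3 (2233), and that for junction minus forestomach without series 1. The midpoint test depended most on the processing. It called 1391 genes, 909 with a pseudocount of 1, 40 with no filter, 2242 with the stricter filter, 749 with every probe set tested, 0 with limma's trend and robust options (3990 genes and 5 of the 10 at an unadjusted p under 0.05), and 0 to 721 without 1 series (without series 2, 0 adjusted, 2858 unadjusted). Of the 10 genes it called 2, 4 with the stricter filter, 0 with no filter (4 unadjusted), 0 with trend and robust options, and 0 to 2 without 1 series. Forestomach over corpus ran from 39.8-fold to 128.3-fold for Tgm1, 23.8-fold to 48.3-fold for Tgm3 and 2.62-fold to 6.54-fold for Tgm5 over the alternatives. The causes were not tested.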
